A study of Mus musculus with 2 samples.

Results

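The 9 genes described here encode POU domain transcription factors: Pou3f1, Pou3f2, Pou3f3 and Pou3f4 of class III, Pou2f1 and Pou2f2 of class II, Pou4f1 and Pou4f2 of class IV, and Pou6f1 of class VI. They were chosen by name, and each matched a single Ensembl gene among the 43346 Ensembl genes of the tables. The tissue was forebrain of B6NCrl mouse embryos at 10.5 days of development, with no genetic change or treatment named in the labels. For replicate 1 the forebrains of 69 embryos were pooled, and for replicate 2 those of 51, both sexes together in each pool, and 10 ng of total RNA went into each library. These 2 libraries form the only group, so the comparisons are between genes and classes within a library and between the pools, and no test is given because an exact two-sided sign flip over 2 libraries cannot go under p = 0.5. Summed expected counts came to 43021202 for replicate 1 and 39215064 for replicate 2.

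POU factors bind DNA through a POU-specific domain joined by a flexible linker to a homeodomain, and many recognise octamer-like sites. Class III factors are expressed in the developing nervous system, where Pou3f2 and Pou3f3 act together in cortical progenitors and in the production of neurons, often beside SOX proteins at shared enhancers. Class II factors are broad or lymphoid octamer binders, class IV factors are known for sensory, retinal and brainstem neurons, and Pou6f1 is a more divergent neural member.

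The recognition helix of the homeodomain lies in the major groove of DNA. The coding sequence of that helix and its flanks, 60 bases or 20 codons in each gene, is shown because the encoded amino acids set the classes apart while the bases do not. Each line is read 5′ to 3′ on the coding strand from GENCODE M21 transcripts on GRCm38, and capitals mark bases that differ from Pou3f2.
Pou3f1, chr4:124658829-124658888 (+): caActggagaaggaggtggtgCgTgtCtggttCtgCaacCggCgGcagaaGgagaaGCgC
Pou3f2, chr4:22486893-22486952 (-): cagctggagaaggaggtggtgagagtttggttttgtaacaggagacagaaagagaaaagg
Pou3f3, chr1:42698466-42698525 (+): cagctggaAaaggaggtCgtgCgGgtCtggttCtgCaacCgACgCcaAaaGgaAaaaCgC
Pou3f4, chrX:110815410-110815469 (+): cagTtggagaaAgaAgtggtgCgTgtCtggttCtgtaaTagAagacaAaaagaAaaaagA
Pou2f1, chr1:165894977-165895036 (-): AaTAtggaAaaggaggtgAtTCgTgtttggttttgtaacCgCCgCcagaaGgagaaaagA
Pou2f2, chr7:25096959-25097018 (-): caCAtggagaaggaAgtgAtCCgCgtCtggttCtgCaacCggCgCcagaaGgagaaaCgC
Pou4f1, chr14:104465753-104465812 (-): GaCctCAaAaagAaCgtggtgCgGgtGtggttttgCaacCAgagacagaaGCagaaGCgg
Pou4f2, chr8:78434761-78434820 (-): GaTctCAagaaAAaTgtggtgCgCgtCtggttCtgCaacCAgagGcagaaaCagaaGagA
Pou6f1, chr15:100578306-100578365 (-): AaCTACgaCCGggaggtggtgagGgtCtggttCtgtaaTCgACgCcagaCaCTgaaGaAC
Among the 6 pairs of class III genes, 44 to 51 of the 60 bases were identical, a range within the 36 to 52 of the 28 pairs from different classes. The 20 codons encoded the same amino acids in all 4 class III genes, whereas pairs from different classes shared 11 to 17. Against Pou3f2, the encoded amino acid differed at 3 of 20 codons in both class II genes, at 5 in both class IV genes and at 7 in Pou6f1. Despite that likeness, transcripts of the 9 genes shared few stretches of 31 bases with any other POU gene, between 0.0416% of such stretches in Pou2f1 and 1.92% in Pou4f2, so most positions separate one paralog from another at that length.

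A gene was called detected where both libraries gave it 1 TPM (a share of transcripts scaled for their length) or more. By that rule 8 of the 9 POU genes were detected: all 4 of class III, both of class II, Pou4f1 of class IV and Pou6f1. Pou4f2 was not. Across all genes, 32.4% of the 43346 Ensembl genes and 57.3% of the 21474 protein-coding genes passed the same limit. A value with ± is a mean with its SD over both libraries (n = 2). In whole tissue, fewer cells expressing a gene and less RNA per cell cannot be told apart.

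**Figure D1:**
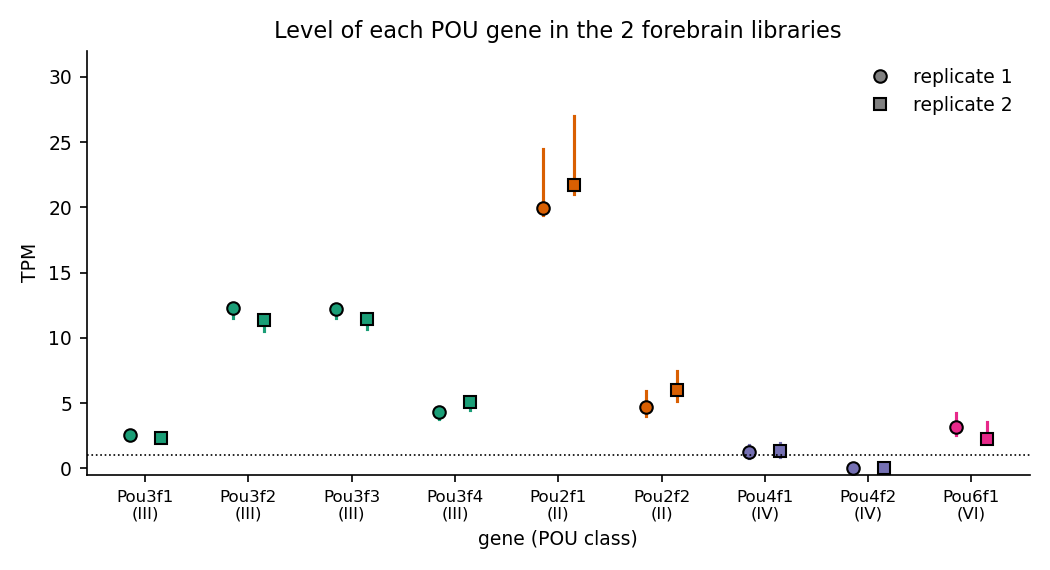
TPM (y axis) of the 9 POU genes (x axis, class in brackets) in replicate 1 (circles) and replicate 2 (squares). Vertical lines span the deposited interval of each estimate, whose level the tables do not name, and the dotted line marks 1 TPM. Pou2f1 stands highest, Pou3f2 and Pou3f3 lie together below it, and Pou4f2 is at 0.

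Pou3f2 and Pou3f3 were the leading class III genes and were level with each other. Pou3f2 (Brn2, a factor of cortical progenitors and a common component of neuronal reprogramming mixtures) lies on chromosome 4 at 22482780 to 22488366, minus strand. It had 12.32 TPM from 1871 expected counts in replicate 1 and 11.35 TPM from 1554 in replicate 2. Pou3f3 (Brn1, its partner in the cortex, also needed in the kidney) lies on chromosome 1 at 42695768 to 42703176, plus strand. It had 12.18 TPM from 2463 counts in replicate 1 and 11.41 TPM from 2081 in replicate 2. Each averaged 11.8 TPM, with an SD of 0.686 for Pou3f2 and 0.544 for Pou3f3, and the ranges of the 2 genes overlapped. Their log2 ratio, Pou3f2 over Pou3f3 on the TPM + 0.1 scale, was 0.02 in replicate 1 and -0.01 in replicate 2. Of the detected genes with a symbol, 42.6% in replicate 1 and 40.7% in replicate 2 lay at or below the level of Pou3f2, so these 2 genes sat a little under the middle of the detected genes.

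The other class III genes were lower. Pou3f4 (Brn4, known for the inner ear and the ventral forebrain), on the X chromosome at 110814280 to 110817207, plus strand, had 4.34 TPM from 340 counts in replicate 1 and 5.09 TPM from 359 in replicate 2. Pou3f1 (Oct6, known for Schwann cell myelination and for early neural commitment), on chromosome 4 at 124656807 to 124660655, plus strand, had 2.58 TPM from 268 counts in replicate 1 and 2.34 TPM from 219 in replicate 2. Both libraries gave the same order, Pou3f4 above Pou3f1. Pou3f2 was 2.48-fold above Pou3f4 (log2 1.31 ± 0.24) and 4.66-fold above Pou3f1 (log2 2.22 ± 0.01). Pou3f3 stood 2.48-fold above Pou3f4 and 4.65-fold above Pou3f1. Pou3f4 was 1.88-fold above Pou3f1 (log2 0.91 ± 0.25). Each of these 5 differences was larger than its SD between the libraries, and the ratio of Pou3f2 to Pou3f3 was not.

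Each class III gene is annotated with 1 transcript of 1 exon, so all of its reads fell on a single form. The transcripts are 3849 bases long for Pou3f1, 5587 for Pou3f2, 7409 for Pou3f3 and 2928 for Pou3f4, and between 41.5% and 71.8% of that length is 3′ UTR. Gene length therefore enters every comparison of class III with longer- or shorter-spliced genes: per count, without division by length, Pou3f3 led Pou3f2 by 0.41 on the log2 scale (Pou3f2 over Pou3f3 -0.41 ± 0.02). On that scale Pou3f2 over Pou3f4 was 2.27 ± 0.24 and Pou3f2 over Pou3f1 was 2.80 ± 0.02. Pou3f3 over Pou3f4 was 2.68 ± 0.23 and Pou3f3 over Pou3f1 was 3.20 ± 0.03. All of these were larger than per length, whereas Pou3f4 over Pou3f1 was smaller, at 0.52 ± 0.26 against 0.91 ± 0.25.

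The promoters of Pou3f2 and Pou3f3 are shown because these genes had equal levels. Each run is the 250 bases before the RefSeq start on the gene's own strand, from GRCm38.p6, with capitals for CCAAT (or its complement ATTGG) and for GGGCGG (or CCGCCC).
Pou3f2, chr4:22488367-22488616 (-): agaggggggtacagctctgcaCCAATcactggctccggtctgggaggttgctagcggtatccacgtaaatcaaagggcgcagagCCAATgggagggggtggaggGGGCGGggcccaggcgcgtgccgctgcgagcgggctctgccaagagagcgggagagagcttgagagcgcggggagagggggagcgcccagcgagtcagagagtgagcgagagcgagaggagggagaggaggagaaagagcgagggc
Pou3f3, chr1:42695518-42695767 (+): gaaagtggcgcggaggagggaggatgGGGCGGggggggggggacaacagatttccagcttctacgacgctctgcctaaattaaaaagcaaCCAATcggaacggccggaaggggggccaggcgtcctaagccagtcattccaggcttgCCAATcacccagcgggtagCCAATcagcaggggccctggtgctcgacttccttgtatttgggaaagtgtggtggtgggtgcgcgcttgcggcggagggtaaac
Pou3f2 holds CCAAT at 229 and 166 bases before its start, and Pou3f3 at 160, 103 and 84 bases. Pou3f4 holds it at 179, 76 and 35 bases, and none of the 5 other POU genes with an entry had a match on either strand (Pou2f1 has 3 windows and the others 1 each). The Pou3f4 window, 110814129 to 110814378, runs past the GENCODE gene start at 110814280, so its matches at 76 and 35 bases lie inside that gene. The Pou2f2 window and some Pou2f1 windows also lie within their GENCODE genes, so the windows are not alike in placement. CCAAT occurs in 33.8% of all 32851 promoter windows of that length, and GGGCGG, found in 7 of the 8 POU genes with an entry, in 32.7%. TATAAA occurs in 12.4% of all windows and, among the POU genes, in 1 window of Pou2f1. The octamer ATGCAAAT was in no POU gene's window, against 1.60% of all windows. Both printed windows are rich in G and C, 66.8% for Pou3f2 and 60.8% for Pou3f3, with 18 and 15 CpG dinucleotides, beside medians of 52.4% and 6 CpG over all windows. A match says only that these letters are present.

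Pou3f3 is flanked by noncoding genes. Pantr1 lies on the opposite strand at 42590782 to 42694842 of chromosome 1, its nearer end 925 bases from Pou3f3, and Pantr2, also opposite, lies at 42707061 to 42713454, 3884 bases beyond the other end. Pantr1 had 176.07 TPM in replicate 1 and 161.22 TPM in replicate 2, which was 14.5-fold and 14.1-fold the TPM of Pou3f3. In expected counts, however, Pantr1 (2317 and 1962) was 0.941 and 0.943 times Pou3f3, because its estimated length was 575 and 587 bases against 7409. Pantr2 had 15.43 and 13.98 TPM from 336 and 294 counts. The 2 neighbours varied little between the libraries: the log2 ratio of replicate 1 over replicate 2 was 0.10 for Pantr1, 0.06 for Pantr2 and 0.11 for Pou3f3.

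**Figure D2:**
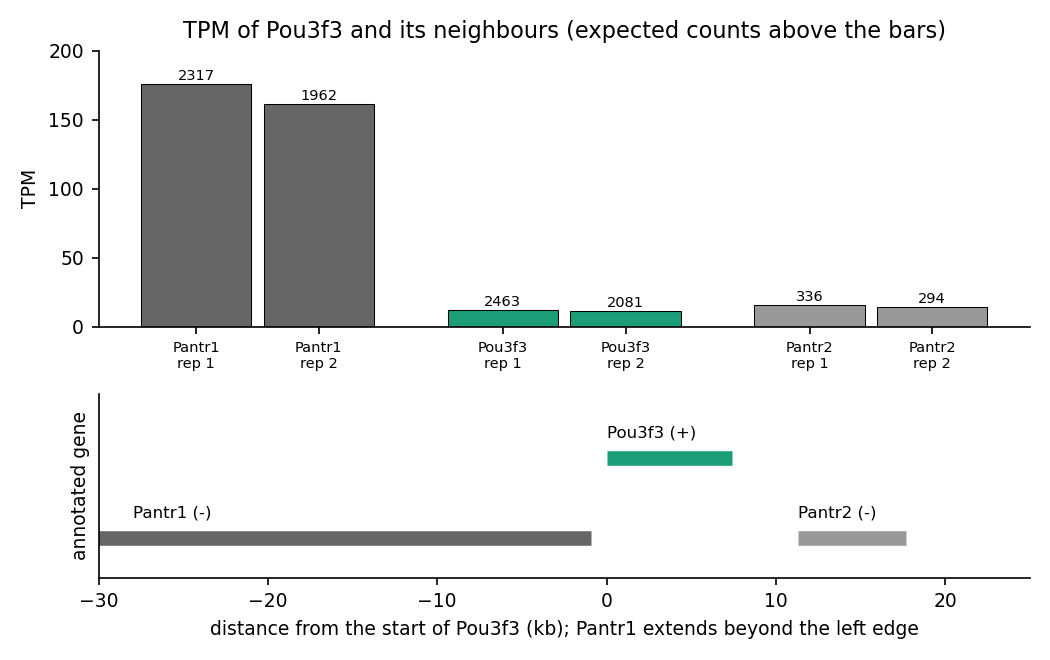
TPM (upper y axis) of Pantr1, Pou3f3 and Pantr2 in each library, with expected counts above the bars, and the position of the annotated genes relative to the start of Pou3f3 (lower x axis, kb; strand in brackets, Pantr1 runs past the left edge). Pantr1 stands 14.5- and 14.1-fold above Pou3f3 in TPM while their counts are nearly equal.

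Class II was led by Pou2f1, the highest of the 9 genes per length. Pou2f1 (Oct1, a widely expressed factor at snRNA and housekeeping promoters), on chromosome 1 at 165865154 to 166002678, minus strand, had 19.92 TPM from 1571 counts in replicate 1 and 21.69 TPM from 1318 in replicate 2. Pou2f2 (Oct2, best known in B cells and also expressed in neural tissue), on chromosome 7 at 25087344 to 25179726, minus strand, had 4.70 TPM from 265 counts in replicate 1 and 6.0 TPM from 278 in replicate 2. Pou2f1 was 3.86-fold above Pou2f2 (log2 1.95 ± 0.16). Pou3f2 was below Pou2f1, at 0.571 of its level (log2 -0.81 ± 0.17), and both libraries agreed in direction.

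That ratio depended on which transcripts were counted. Pou2f1 has 18 annotated transcripts, and those with a complete coding sequence carried 63.0% of its TPM in replicate 1 and 58.2% in replicate 2, or 12.54 and 12.64 TPM. The rest was in incomplete coding models (3.52 and 4.56 TPM) and retained introns (3.85 and 4.51 TPM). Counting complete coding transcripts alone, Pou3f2 over Pou2f1 was -0.09 ± 0.09 on the log2 scale, a difference no larger than its SD. In counts not divided by length the order turned round, with a log2 ratio of 0.24 ± 0.01. The 2 Pou2f1 transcripts over 13 kb held 34.9% of its counts in replicate 1 and 26.8% in replicate 2 but only 7.69% and 5.05% of its TPM. Cd247 lies antisense to Pou2f1 and overlaps it by 3007 exon bases, which make up most of the 17.6% of 31-base stretches of Pou2f1 found in other genes. Cd247 had 29 and 24 counts. No source used here says whether the counting used strand, so reads in that overlap may belong to either gene.

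In Pou2f2 an incomplete coding model of 609 bases led in both libraries, with 32.5% of the TPM in replicate 1 and 33.2% in replicate 2, from 22 and 25 counts. Its complete coding transcripts had 2.66 and 3.43 TPM, under Pou3f4's 4.34 and 5.09.

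**Figure D3:**
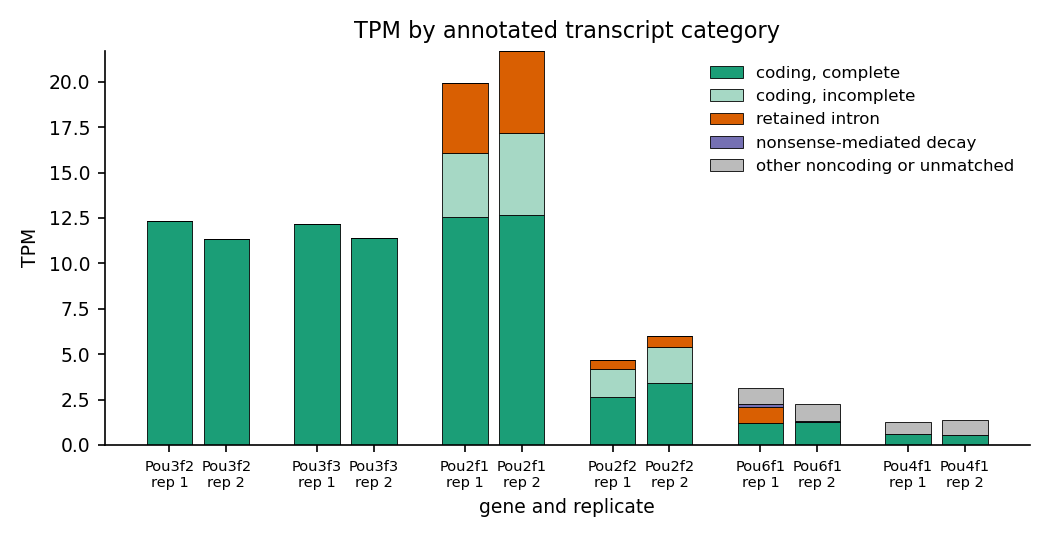
TPM (y axis) of 6 POU genes in each library (x axis), stacked by annotated transcript category. Complete coding transcripts of Pou2f1, at 12.54 and 12.64 TPM, reach about the height of Pou3f2 and Pou3f3, and the rest of its bars is incomplete or retained-intron models.

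Class IV was near or under the detection limit. Pou4f1 (Brn3a, of sensory, habenular and brainstem neurons), on chromosome 14 at 104461676 to 104467999, minus strand, had 1.25 TPM from 86 counts in replicate 1 and 1.37 TPM from 76 in replicate 2. A noncoding transcript of 799 bases carried 50.8% and 58.0% of that TPM from 12 and 14 counts, and the coding transcript had 0.61 and 0.57 TPM from 74 and 62 counts, under 1 TPM in both libraries. Pou4f2 (Brn3b, of retinal ganglion cells), on chromosome 8 at 78433010 to 78436645, minus strand, had 0 counts in both libraries, which allows up to 0.0349 TPM in replicate 1 and 0.0387 in replicate 2 at a floor of 3 counts per library. The estimated TPM of Pou4f1 was 35.8-fold that floor in replicate 1 and 35.4-fold in replicate 2, and that of Pou3f2 353-fold and 293-fold. These folds are not lower bounds, because they take the estimate of the higher gene as exact. The deposited interval of Pou4f1 reached down to 0.774 TPM in replicate 1 and 0.876 in replicate 2. The floors cover counting error only. Each deposited interval is of 1 library and does not cover the spread between pools. What else enters it is not named in the sources used here.

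Pou6f1 (Brn5, expressed in neural tissue), on chromosome 15 at 100575318 to 100599984, minus strand, had 3.14 TPM from 282 counts in replicate 1 and 2.23 TPM from 178 in replicate 2. Pou3f2 was 4.34-fold above it (log2 2.12 ± 0.25), and the log2 ratio was 3.18 ± 0.13 with complete coding transcripts and 2.91 ± 0.28 in counts not divided by length. Its complete coding transcripts were close in the libraries, at 1.19 TPM from 166 counts and 1.25 TPM from 155 counts. A retained-intron transcript held 89 counts and 28.7% of the TPM in replicate 1 and none in replicate 2, where a noncoding transcript of 764 bases led with 37.1% from 14 counts.

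In the order of mean TPM the genes ran Pou2f1, Pou3f2, Pou3f3, Pou2f2, Pou3f4, Pou6f1, Pou3f1, Pou4f1 and Pou4f2. Of the 8 neighbouring pairs in that order, 5 had ranges that did not overlap between the libraries, and 3 had ranges that did: Pou3f2 with Pou3f3, Pou2f2 with Pou3f4, and Pou6f1 with Pou3f1. Within a library, Pou2f2 was above Pou3f4 in both, by 1.08-fold in replicate 1 and 1.18-fold in replicate 2, while the other pairs changed order between the libraries. By counts not divided by length the order was Pou3f3, Pou3f2, Pou2f1, Pou3f4, Pou2f2, Pou3f1, Pou6f1, Pou4f1 and Pou4f2, which left 3 genes at their rank.

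Summed over its 4 genes, class III had 31.4 TPM in replicate 1 and 30.2 in replicate 2 (30.8 ± 0.870). Class II had 24.6 and 27.7 TPM over 2 genes (26.2 ± 2.17), class IV had 1.25 and 1.37, and class VI had 3.14 and 2.23. Class III thus held 50.5% ± 2.04 of the POU total in TPM, class II 42.9% ± 3.04, class IV 2.15% ± 0.113 and class VI 4.41% ± 1.11. In counts the class III share was 69.3% ± 0.234, and among complete coding transcripts 63.8% ± 1.48. The latter scale leaves the class III sum unchanged and cannot raise the others, because each class III transcript is complete coding.

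**Figure D4:**
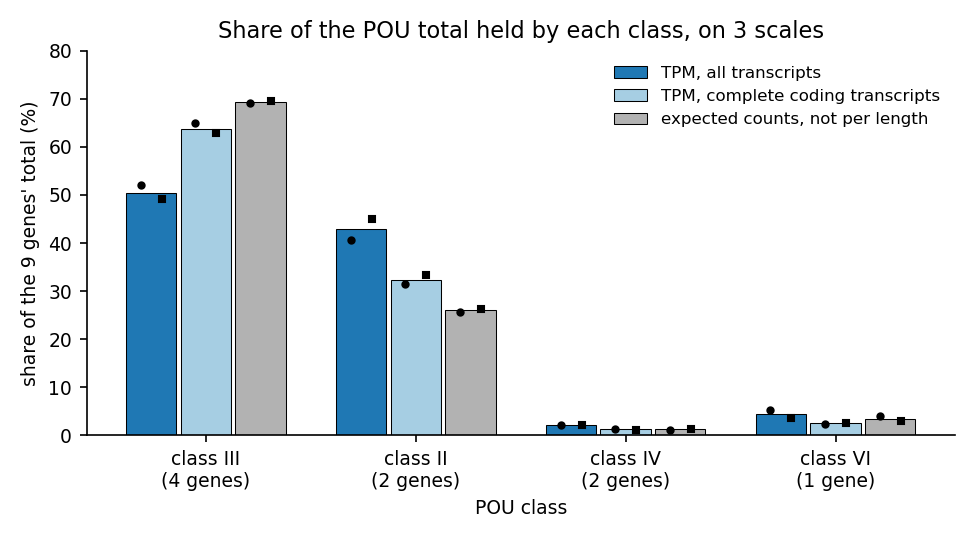
Share of the 9 genes' summed level (y axis, %) held by each POU class (x axis) on 3 scales. Bars are means of the 2 libraries, circles replicate 1 and squares replicate 2. The class III share is 50.5% in TPM, 63.8% among complete coding transcripts and 69.3% in counts.

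Classes were also compared by their medians, which in classes of so few genes need not lie near the level of any gene. The class III median on the log2(TPM + 0.1) scale was 2.88 in replicate 1 and 2.95 in replicate 2, against 3.29 and 3.53 for class II, a difference of -0.49 ± 0.12. This difference turned to 0.26 ± 0.09 with complete coding transcripts only and to 0.30 in counts not divided by length. The complete coding setting leaves class III unchanged and cannot raise any other class, because each class III gene has only a complete coding transcript. Its direction was therefore fixed by the annotation. Class III was lower than class II in each setting run that counted all annotated transcripts per length. Class III was above class IV by 4.33 ± 0.00 and above Pou6f1 by 1.46 ± 0.38, or by 2.52 ± 0.00 with complete coding transcripts. The class IV value moved between 2.42 and 6.02 with the treatment of low values, because Pou4f2 was at 0, and stayed above 0 in every setting run. Against the 5 other genes together the class III median was 1.46 ± 0.38 higher, the same figure as for Pou6f1, which is the median of those 5.

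Between the pools no POU gene passed 2-fold, beside 0.585% of the 13842 genes that averaged at least 50 counts. The log2 ratios of replicate 1 over replicate 2 ran from -0.21 to 0.53 in the 8 genes with counts. Pou3f2 was at 0.13 (exact 95% binomial interval 0.03 to 0.23), Pou3f3 at 0.11 (0.02 to 0.19) and Pou2f1 at 0.12 (0.01 to 0.22). Pou3f4 was at -0.21 (-0.43 to 0.00) and Pou3f1 at 0.16 (-0.11 to 0.42). Pou6f1 was farthest from 0, at 0.53 (0.25 to 0.81), or 1.44-fold, where the median size of the ratio was 0.170 among 2766 genes of like count. Of its unscaled counts, complete coding transcripts held 166 in replicate 1 and 155 in replicate 2. Its retained-intron transcript held 89 and 0. The split of reads among transcripts is an estimate given here without its error, and its part in the gene's ratio was not tested.

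Markers of neurons and erythroid cells differed between the pools too, though none of those listed passed 2-fold. All 7 neuronal genes were higher in replicate 1, by a median of 0.42, and their summed level was 393 TPM in replicate 1 and 303 in replicate 2, led by Tubb3, a neuronal tubulin, at 220.95 and 175.13 TPM. All 5 erythroid genes were also higher there, by a median of 0.42, with sums of 17355 and 12853 TPM. The 7 neuroepithelial genes had a median of 0.00 and sums of 1391 and 1387 TPM. Median ratios were 0.04 for mesenchyme, -0.08 for endothelial and -0.01 for macrophage genes. The part of the neuronal or the erythroid list in the Pou6f1 difference was not tested.

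**Figure D5:**
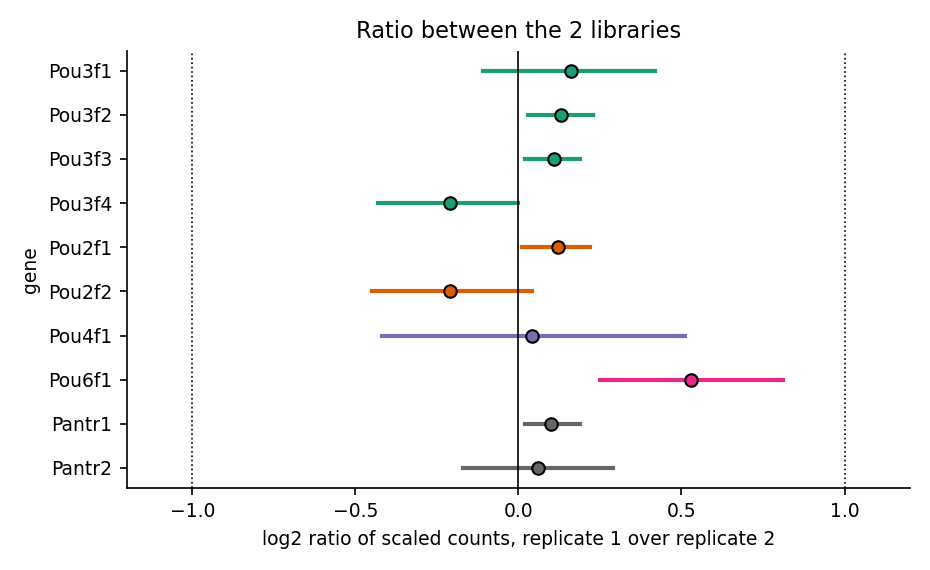
Log2 ratio of scaled counts (x axis), replicate 1 over replicate 2, for 8 POU genes, Pantr1 and Pantr2 (y axis). Horizontal lines are exact 95% binomial intervals, which cover counting error only, and dotted lines mark 2-fold. Pou6f1 lies farthest from 0, at 0.53, and no gene passes 2-fold.

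Among POU genes outside these 9, Pou5f2 was detected, at 1.03 and 1.39 TPM. Pou5f1 (Oct4, of pluripotent cells) had 0.10 and 0.07 TPM, Pou2f3 had 0.02 and 0.03, and Pou1f1, the pituitary factor, had 0.00 and 0.07. Pou4f3, of inner ear hair cells, was listed at 0 in both libraries.

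SOX proteins are known partners of class III factors. All 6 SOX genes listed were detected, led by Sox11 at 221.67 and 219.02 TPM and Sox4 at 43.69 and 42.76, both of differentiating neurons, and by the progenitor factor Sox2 at 21.10 and 21.28. Summed class III was 1.09 and 1.03 times the summed Sox1, Sox2 and Sox3, which had 28.7 and 29.3 TPM, a sum chosen after its values were seen. Of 7 cofactors of class II factors, 6 were detected, led by Hcfc1, a chromatin-linked cofactor, at 75.44 and 71.28 TPM, with Snapc2 and Snapc5 of the snRNA-activating complex at 55.15 and 55.22, and at 51.13 and 55.31. Pou2af1, the B-cell coactivator of octamer factors, was listed at 0.

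All 6 genes listed as class III targets were detected. Nes, the intermediate filament of neural progenitors whose enhancer binds POU and SOX factors, had 73.43 and 69.17 TPM. Dll1, a Notch ligand of new neurons, had 45.04 and 47.92 TPM. Fabp7, a radial glial lipid carrier, had 194.17 TPM in replicate 1 and 119.79 in replicate 2, a log2 ratio of 0.71 (0.63 to 0.79), outside the intervals of Pou3f2 and Pou3f3.

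Genes of later or other sites of POU function were mixed. Of 7 genes of upper-layer cortical neurons, where Pou3f2 and Pou3f3 act later, 5 were detected, led by Cux1 at 90.23 and 90.32 TPM, with Unc5d at 0.14 and 0.04. Of 6 hypothalamic neuroendocrine genes, only Arnt2, a dimer partner of Sim1, was detected, at 22.61 and 18.90 TPM. Otp, at 1.36 and 0.47 TPM, and Sim1, at 0.99 and 0.42, were past 2-fold higher in replicate 1, and Avp was listed at 0. Of 7 genes of crest-derived glia and pigment cells, in which Pou3f1 and Pou3f2 are known to act, 3 were detected, among them Erbb3, a neuregulin receptor, at 2.67 and 2.57 TPM, with Foxd3 at 0.06 and 0.09.

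For class IV, 6 of 11 sensory neuron genes were detected, led by Neurog1 at 15.91 and 11.67 TPM, with Tlx3 listed at 0. Of 6 genes of retinal ganglion cells 3 were detected, led by Rbpms, which other tissues also express, at 30.52 and 33.25 TPM, and Atoh7, which acts before Pou4f2 in the retina, had 0.41 and 0.34. Of 8 midbrain genes 4 were detected, led by Tfap2b at 27.08 and 25.19 TPM, with En1 at 0.09 and 0.08 and En2 at 0.00 and 0.01.

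For the labelled tissue, all 6 forebrain regional genes were detected, led by Lhx2 at 91.69 and 98.32 TPM, and none of 9 HOX genes was. The neuroepithelial genes were led by Vim at 768.37 and 762.35 TPM. Mesenchyme (6 of 6 detected), endothelium (5 of 5), erythroid cells (5 of 5) and macrophages (5 of 5) were also represented, so the levels belong to the whole tissue and the tables do not assign them to progenitors. Among the 114 listed genes outside the family, the nearest in level to Pou3f2 were Pax3 and C1qb, to Pou3f3 Pax3 and Cdh5, and to Pou2f1 Kdr and Sox2, by distance of log2(TPM + 0.1) over the 2 libraries.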

How the data were processed

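Total RNA was extracted by the mirVana method and spike-ins were added, per the labels, whose protocols also cite a low-input library kit. Assembly mm10 and annotation M4 are named in the deposited notes. No source used here names the aligner, the quantification tool, the read strand or the priming. The authors deposited, for each library, expected counts (estimated reads, not normalized, per the file headers), TPM over all 69691 rows, spike-ins included, a posterior mean TPM, interval bounds of TPM, and for each transcript its percent of the TPM of its gene. TPM outside Ensembl genes was 7.83% in replicate 1 and 7.02% in replicate 2.

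Members were found by Ensembl identifier, version removed. Symbols, coordinates and transcript categories came from GENCODE M21 on GRCm38, promoters from RefSeq (8 of 9 genes matched). Levels were compared on log2(TPM + 0.1). Library ratios were of expected counts, with 0.5 added, divided by TMM-scaled sizes (edgeR 4.0.16, R 4.3.3, scaling on genes that reached 10 counts in both libraries), with 2-fold at a mean count of 50 or more as the call. DESeq2 1.42.0 gave alternative size factors only. The rest used Python 3.11.15. The ratio step was run on simulated data with planted changes well past 2-fold, which checks the code and not calls near that limit. The windows of 60 bases were found by translating the listed coding transcripts.

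The members and lists were chosen with earlier results of these data known. Named genes are all POU genes, Pantr1 and Pantr2, the 3 highest members of each list and up to 3 under 1 TPM in both libraries, and the 2 listed genes nearest in level to Pou3f2, Pou3f3 and Pou2f1. Some genes that the rule names are left out of the text. The labels call the libraries biological replicates from separate pools, so their spread is that between pools and their processing. Alternatives were other pseudocounts, posterior means, CPM from expected counts without division by length, class means, filters, scalings, and each library left out.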

Additional observations from a re-analysis of the deposited data

How the results depend on the processing

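No paired analysis was possible because there is a single group of 2 libraries. Complete coding transcripts only and Pou4f2 set at its floor were chosen after seeing the data. The class III minus class II difference of -0.49 on the log2 scale was -0.63 with posterior mean TPM and -0.72 with class means, and reversed to 0.30 in CPM and 0.26 with complete coding transcripts. Leaving out each library gave -0.58 to -0.41. Class III minus class IV, 4.33, was 2.49 with pseudocount 1, 6.02 with pseudocount 0.01, 4.22 with posterior mean TPM, 5.40 in CPM, 4.11 with class means, 2.42 for genes at 1 TPM or more, 4.84 with complete coding transcripts and 5.08 at the floor, with 4.33 without either library. Class III minus Pou6f1, 1.46, was 2.52 with complete coding transcripts, and 1.19 to 1.73 with a library left out. Class III minus all others, also 1.46, was 0.97 for genes at 1 TPM or more, 2.52 with complete coding transcripts, and 1.19 to 1.73 with a library left out. The class III share of 50.5% was 47.9% with posterior mean TPM, 69.3% in CPM and 63.8% with complete coding transcripts, and 49.1% to 52.0% with a library left out. Detected genes numbered 8, and 7 at 2 TPM or with complete coding transcripts. Of 9 genes, 3 kept their rank in CPM, 5 with complete coding transcripts, and 5 to 9 with a library left out. Pou3f2 over Pou3f3, 0.00, was -0.41 in CPM and -0.01 to 0.02 with a library left out, and Pou3f2 over Pou2f1, -0.81, was 0.24 in CPM. For CPM the construction leaves length in. The complete coding setting leaves class III unchanged and cannot raise the other classes, so the direction of its moves was fixed by the annotation. No POU gene passed 2-fold between libraries under any scaling or count minimum run. Depth limits Pou4f1 and Pou4f2 most, with under 100 counts each.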
